A study of Mus musculus with 2 samples.

Results

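Antigen presentation by the major histocompatibility complex (MHC) was described in mouse embryonic liver through 10 genes, taken by name from the gene tables of both libraries. They were 10 of the 43346 annotated genes. H2-K1, H2-D1, B2m, Tap1, Tap2 and Tapbp belong to the class I pathway (6 genes), and Cd74, H2-Aa, H2-Ab1 and Ciita to the class II pathway (4 genes). They form a list of names, and no threshold on a measured value chose them. The list was made with earlier results of these data known. The tissue was whole liver of healthy B6NCrl embryos at day 13.5, pooled from males and females, untreated and with no genotype other than the strain. The series holds 1 group of 2 biological replicates that share 1 donor entry, so there was no second condition and the comparisons were made between genes within each library and between the replicates. An SD over n = 2 measures the spread between these samples alone.

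Class I molecules display peptides made inside the cell. A heavy chain (H2-K1 or H2-D1 in this strain) pairs with beta-2-microglobulin, the product of B2m, after the transporter Tap1/Tap2 has moved peptides from the proteasome into the endoplasmic reticulum, where tapasin (Tapbp) holds the empty molecule beside the transporter. Class II molecules, made of an alpha and a beta chain (H2-Aa and H2-Ab1), display peptides from endosomes. Their groove is kept closed by the invariant chain Cd74 until the peptide editor H2-DM loads a peptide, and their transcription depends on the coactivator Ciita. Class I is found on most nucleated cells of the adult, whereas class II is typical of dendritic cells, macrophages and B cells. The fetal liver is a blood-forming organ in which hepatoblasts, red cell precursors, endothelium and macrophages lie side by side.

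Replicate 1 held 39182457 expected counts on annotated genes and replicate 2 held 37432977. Expected counts are reads per gene as estimated by the authors' model, and TPM, a relative transcript abundance, are the same estimates corrected for length and library size. The 8 hepatoblast markers and the 7 erythroid markers found in the tables were all at 1 TPM or more, with summed levels of 16167 and 18017 TPM for hepatoblasts and 3057 and 3341 TPM for erythroid cells in replicates 1 and 2. All 8 endothelial markers did so too (96.3 and 116 TPM summed). Cardiac markers, which mark a neighbouring organ, summed to 36.8 and 93.9 TPM. Spike-in RNAs took 1.16% of counts in replicate 1 and 1.88% in replicate 2.

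The sequences that control these genes are shown first, because 4 of the members share a short arrangement there. Promoters of class I and class II genes are known to hold a conserved module in which an X box, bound by the RFX complex and by factors of the CREB/ATF family, lies upstream of a Y box, a reversed CCAAT bound by NF-Y. Ciita for class II, and Nlrc5 for class I, act through this module without binding DNA themselves. RefSeq promoter sequences (GRCm38.p6, the 250 bases before the start) were at hand for 6 of the 10 members: H2-K1, H2-D1, B2m, Tap1, Tapbp and H2-Aa. In 4 of these 6, H2-K1, H2-D1, B2m and H2-Aa, the letters TGACG, here called the CRE core, which CREB/ATF factors are known to bind, came first. After 20 or 21 bases followed the letters ATTGG, which are the CCAAT box read on the opposite strand. Across 27025 promoters of the same length, 41 held this pair with this spacing on either strand, or 0.152%, and the spacing was chosen after the members' sequences had been seen. Among 93 other genes of the pathway lists that had a window, 1 held the pair, the non-classical class I gene H2-M3. The stretches are shown in the direction of each gene with both motifs in capitals, and below them the stretch of H2-Q10, a class I heavy chain gene of the liver described later, that aligned with that of H2-D1.
H2-K1: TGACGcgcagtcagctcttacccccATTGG
H2-D1: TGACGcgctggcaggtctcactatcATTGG
B2m: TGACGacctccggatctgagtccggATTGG
H2-Aa: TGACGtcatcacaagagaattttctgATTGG
H2-Q10: TTGAGgctatcaggtctcacccccATGA

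The stretch of H2-K1 lies at chr17:34000359-34000388 on the minus strand and that of H2-Aa at chr17:34287867-34287897 on the minus strand. Those of H2-D1 (chr17:35262993-35263022), B2m (chr2:122147609-122147638) and H2-Q10 (chr17:35469988-35470015) are on the plus strand, all in GRCm38. The first base stands at −41, −74, −101 and −78 from the RefSeq start in H2-K1, H2-Aa, H2-D1 and B2m. In H2-Q10, 5 of the 10 motif letters of H2-D1 were different or missing in the alignment, although the 2 promoters were 83.5% identical over 242 aligned bases. For comparison, the promoters of H2-K1 and H2-D1 were 87.4% identical over 190 aligned bases. The start of H2-D1 in RefSeq lies inside the first part of the transcript that GENCODE release M21 gives, so its stretch falls within an annotated exon there. For Tapbp the RefSeq start lies 3579 bases from the M21 start, and 146 of the 250 bases of its window fall in exons of the leading transcript.

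Single motifs were far more common than the pair. On either strand, the CCAAT box was found in 34.5% of the 27025 promoters, the CRE core in 17.9%, the NF-kappaB consensus in 7.01% and GAAA repeated after 2 bases, the core of interferon response elements, in 3.04%. H2-K1, H2-D1, B2m and H2-Aa each held a CCAAT box, a CRE core and the NF-kappaB consensus. In B2m the window also held the repeat of GAAA, from position −139, and in H2-Aa the CRE core overlaps its own copy on the other strand. Tap1 held a CCAAT box and a CRE core, Tapbp held a CCAAT box, and H2-Q10 held none of these 4 motifs. A match is a description of letters and not of binding, and no binding was measured.

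The heavy chains resemble each other closely, which bears on how well reads can be assigned to them. Over their aligned coding sequences H2-K1 and H2-D1 differed at 93 of 1080 bases (91.4% identity), H2-K1 and H2-Q10 at 118 of 969 (87.8%), and H2-D1 and H2-Q10 at 101 of 978 (89.7%). A stretch of 90 coding bases from a part that differs strongly is shown with the 21 variable columns in capitals; H2-D1 differs from H2-K1 at 16 of them and H2-Q10 at 13. It lies at chr17:33999457-33999546 (minus strand) in H2-K1, chr17:35263839-35263928 (plus strand) in H2-D1 and chr17:35470826-35470915 (plus strand) in H2-Q10, each within 1 exon of GRCm38.
H2-K1: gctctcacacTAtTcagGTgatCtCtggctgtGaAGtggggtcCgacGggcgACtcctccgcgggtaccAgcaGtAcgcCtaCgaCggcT
H2-D1: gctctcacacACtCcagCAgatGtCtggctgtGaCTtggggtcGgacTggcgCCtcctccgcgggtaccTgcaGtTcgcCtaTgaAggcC
H2-Q10: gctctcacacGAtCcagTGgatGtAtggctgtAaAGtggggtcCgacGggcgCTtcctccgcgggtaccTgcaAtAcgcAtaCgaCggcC

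Between H2-K1 and H2-D1 the longest identical run of coding sequence was 91 bases. In whole transcripts, none of the 1520 windows of 100 bases in the leading transcript of H2-K1 occurred in a transcript of another gene. In H2-D1, 93 of 2003 windows did (4.64%), most of them in H2-Q1 (85 windows). The authors' posterior SD, their estimate of how uncertain the assignment of reads was, came to 7.32 and 7.89 counts for H2-D1 and to 0.99 and 0.88 counts for H2-K1 in replicates 1 and 2. For H2-Q10 it was 4.34 and 4.47 counts. All of these are small beside the counts per gene given next.

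The class I genes stood above the class II genes in both libraries, with 1 near tie between the lowest of the one and the highest of the other. In bulk tissue, fewer cells of a type and less RNA per cell cannot be told apart. B2m, the light chain shared by all class I molecules, was the highest of the 10 with 289.8 TPM in the first replicate and 343.8 TPM in the second (317 ± 38.2 TPM, mean and SD, n = 2 here and below). That placed it at rank 309 of 21474 protein-coding genes (percentile 98.6). H2-D1 stood at 70.2 and 67.0 TPM (68.6 ± 2.26 TPM, percentile 92.6). H2-K1 stood at 62.2 and 60.5 TPM (61.3 ± 1.27 TPM, percentile 91.8). The heavy chains were therefore close to each other, with H2-D1 over H2-K1 at 1.13-fold in replicate 1 and 1.11-fold in replicate 2. B2m rests on 8351 and 8898 counts, H2-D1 on 4700.3 and 3957, and H2-K1 on 3495 and 3056.

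**Figure D1:**
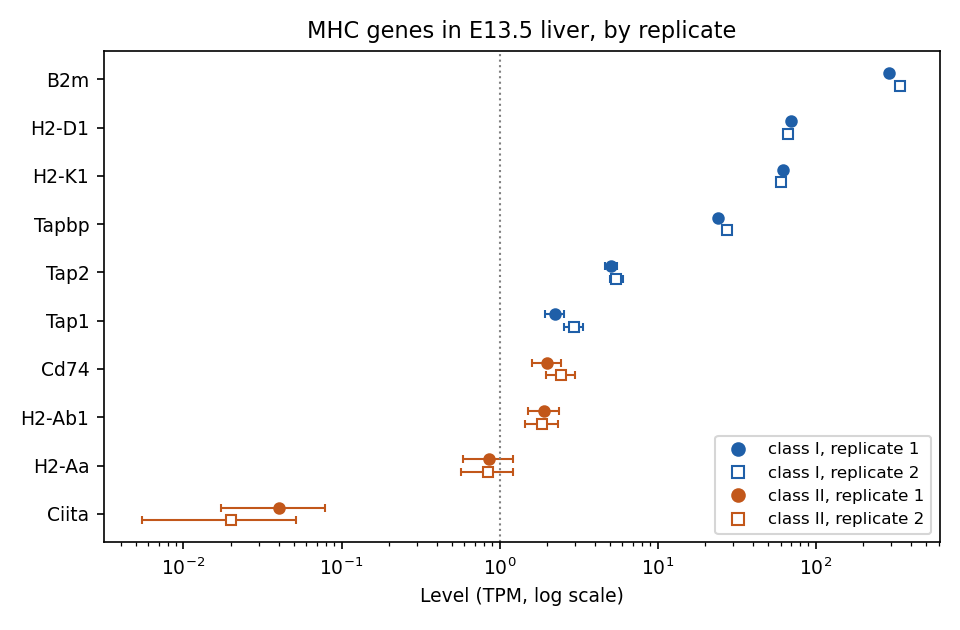
Level of each of the 10 genes in TPM (log axis) in replicate 1 (filled circles) and replicate 2 (open squares), class I in blue and class II in orange, with exact 95% Poisson intervals that cover counting error only and a dotted line at 1 TPM. The 6 class I genes lie at 2.23 TPM or more and the 4 class II genes at 2.45 TPM or less.

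The excess of the light chain was modest when set against its partners. B2m over the sum of H2-K1 and H2-D1 was 2.19-fold in replicate 1 and 2.70-fold in replicate 2 (log2 ratio 1.28 ± 0.21). B2m also pairs with non-classical class I chains, which present to other receptors or carry other ligands. With all 21 measured genes of the non-classical list added to the partners, B2m stood below their sum, at 0.774-fold and 0.907-fold (log2 ratio −0.26 ± 0.16). The direction of the comparison thus changed with the partners counted.

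The largest of those partners was H2-Q10, which encodes a secreted class I molecule made mainly by the liver. Its replicates gave 132.7 and 135.9 TPM (134 ± 2.28 TPM). H2-Q10 thus exceeded H2-K1 by 2.13-fold and 2.25-fold, and stood near the sum of H2-K1 and H2-D1, at 1.00-fold and 1.07-fold. It made up more of the non-classical list than all other genes of that list together, since the list summed to 242 and 252 TPM with it and to 109 and 116 TPM without it. Among the class I heavy chain genes measured, the highest was thus H2-Q10. The absence of the intact motif pair shown above was not particular to it. Of 16 genes of the non-classical list with a promoter window, 1 held the pair. Whether the pair relates to level was not tested.

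Next in the non-classical list came Fcgrt, the neonatal Fc receptor that rescues antibody and albumin from breakdown, at 25.3 and 28.0 TPM (26.7 ± 1.91 TPM). H2-Q7 (22.2 ± 0.382 TPM) encodes a membrane-bound Qa-2 chain. H2-T23, which encodes Qa-1, the ligand of inhibitory receptors of natural killer cells, stood at 21.2 ± 0.658 TPM and was singled out after its values were seen. Of the 21 genes, 11 reached 1 TPM in both libraries, and 6 (H2-T3, H2-M2, H2-M5, H2-M9, H2-M10.1 and Cd1d2) had 3 counts or fewer in each. The median of the list was 1.24 ± 0.113 TPM. Several H2-Q genes are near copies of each other, and H2-Q7 had a posterior SD of 8.65 and 8.61 counts on 1068 and 1018 counts.

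**Figure D2:**
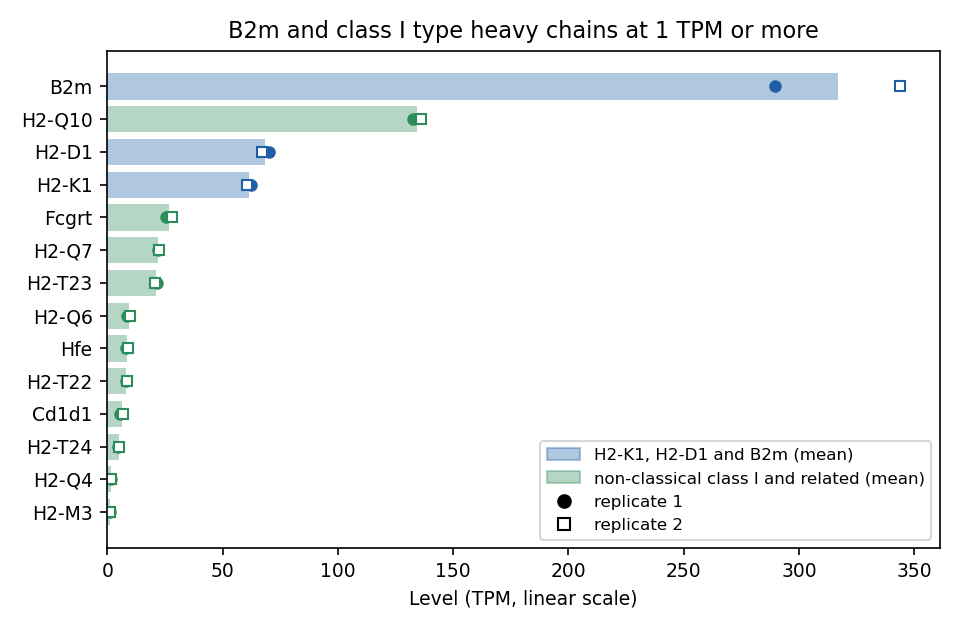
Level in TPM (linear axis) of B2m, H2-K1 and H2-D1 (blue) and of the non-classical class I and related genes at 1 TPM or more in both libraries (green). Bars are means and symbols are replicate 1 (circle) and replicate 2 (square); H2-Q10 at 134 ± 2.28 TPM follows B2m and exceeds both classical heavy chains.

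Peptide loading was carried by transcripts at lower and unequal levels. Tapbp stood at 24.2 and 27.7 TPM (26.0 ± 2.44 TPM, percentile 83.2). Tap2 stood at 5.09 and 5.48 TPM (5.29 ± 0.276 TPM, percentile 63.0). Tap1 stood at 2.23 and 2.94 TPM (2.59 ± 0.502 TPM, percentile 55.3). The groups of values did not overlap: both Tapbp values lay above both Tap2 values, and both Tap2 values above both Tap1 values. The transporter subunits, which work as a heterodimer, differed by 2.28-fold in replicate 1 and 1.86-fold in replicate 2 in favour of Tap2 (log2 ratio 1.04 ± 0.21), and Tapbp exceeded Tap1 by 10.9-fold and 9.42-fold.

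The surplus of Tap2 was not seen among the coding transcripts of the 2 genes, where Tap1 stood higher in both libraries. Of the TPM of Tap2, 85.3% in replicate 1 and 73.8% in replicate 2 (79.5% ± 8.13) lay on Tap2-202, a transcript of 2561 nt that the annotation classes as a retained intron. The full-length coding transcript Tap2-201 (3442 nt) stood at 0.75 and 0.95 TPM, on 95.03 and 107.7 counts. For Tap1 the leading transcript was the coding Tap1-201, at 0.93 and 1.40 TPM, which took 44.7% ± 4.30 of the gene's TPM. A second coding form, Tap1-206, took 39.0% in replicate 1 and 24.6% in replicate 2, and retained introns took 17.7% ± 2.29. All coding transcripts together took 80.7% and 84.0% of the TPM of Tap1 and 14.7% and 26.2% of that of Tap2. The division between transcripts is an estimate from shared reads, and for Tap1 it rests on 206 and 221 counts in all.

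Among the other genes, retained introns were a small part. They took 14.6% ± 2.04 of the TPM of Tapbp but 2.79% and 3.53% of its counts, since those transcripts are short. In H2-K1 they took 5.01% and 3.99%, in H2-D1 0.114% and 1.40%. H2-K1-201 led H2-K1 with 75.7% ± 0.803, followed by another coding transcript with 17.7% ± 1.33, and H2-D1-202 led H2-D1 with 85.2% ± 1.48. Of the 10 genes, 8 had more than 1 annotated transcript, and B2m and Ciita had 1.

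**Figure D3:**
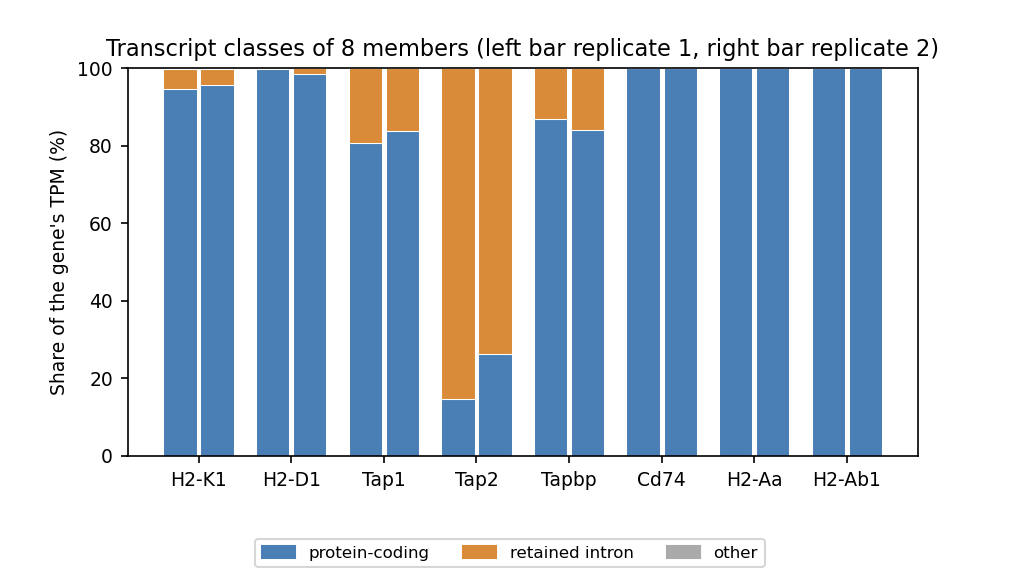
Share of each gene's TPM (percent) on protein-coding, retained-intron and other transcripts for the 8 genes with more than 1 annotated transcript, left bar replicate 1 and right bar replicate 2. Tap2 stands apart with 85.3% and 73.8% on a retained-intron transcript.

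The list of class I folding and peptide trimming is wider than peptide loading and also holds genes of general protein handling. Its 15 genes were all at 1 TPM or more in both libraries, beside 52.1% of protein-coding genes, and their median was 39.1 ± 6.36 TPM. The chaperones Hspa5 (541 ± 91.0 TPM) and Calr (504 ± 64.9 TPM) led the list, and both serve the folding of secreted proteins at large. Ube2l6, the conjugating enzyme for the interferon-inducible modifier ISG15, followed at 363 and 397 TPM. Proteasomes supply the peptides. Their constitutive catalytic subunits Psmb6, Psmb5 and Psmb7 stood at 355 ± 31.0, 241 ± 4.74 and 206 ± 17.0 TPM.

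The catalytic subunits of the immunoproteasome, which interferon induces in place of the constitutive ones, were far lower. Psmb10 stood at 34.0 and 29.3 TPM, Psmb8 at 14.6 and 12.6 TPM, and Psmb9, the neighbour of Tap1, at 5.83 and 6.99 TPM. Summed over the 3 subunits of each kind, the constitutive set exceeded the immunoproteasome set by 15.0-fold in replicate 1 and 16.2-fold in replicate 2 (log2 ratio 3.96 ± 0.08). Psme1 and Psme2, which form the activator PA28, were higher, at 95.9 ± 4.60 and 184 ± 14.9 TPM. All 5 genes of the immunoproteasome list reached 1 TPM in both libraries.

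Cd74, H2-Ab1 and H2-Aa rested on 30 to 95 counts per library, although Cd74 and H2-Ab1 stood above the protein-coding median of 1.45 TPM. Cd74 stood at 1.99 and 2.45 TPM in the 2 replicates (2.22 ± 0.325 TPM, percentile 53.8) on 87 and 95 counts. H2-Ab1 stood at 1.92 and 1.85 TPM (1.89 ± 0.0495 TPM, percentile 52.3) on 81 and 70 counts. H2-Aa stood at 0.86 and 0.85 TPM (0.855 ± 0.00707 TPM, percentile 45.8) on 32 and 30 counts. These genes were detected in both libraries, but few reads lie behind them. The exact Poisson interval of H2-Aa in replicate 1 runs from 0.588 to 1.21 TPM, a range far wider than the gap between its replicates.

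The chains and their chaperone were not level with each other. H2-Ab1 exceeded H2-Aa by 2.23-fold and 2.18-fold (log2 ratio 1.14 ± 0.03), with counting intervals that did not overlap. Cd74 stood at 1.43-fold and 1.81-fold of the mean of the 2 chains (log2 ratio 0.69 ± 0.24). Cd74 and H2-Ab1 themselves did not overlap between replicates, but their counting intervals did. All reads of H2-Ab1 were assigned to the coding H2-Ab1-201. For Cd74, the transcript of 1218 nt, Cd74-201, took 80.4% and 89.4%, and Cd74-202 (1410 nt) took 19.6% and 10.6%. For H2-Aa, H2-Aa-201 took 82.8% and 100%, a difference that rests on 4.02 counts.

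Ciita, the master coactivator of class II, was the lowest of the 10. Its level was 0.04 and 0.02 TPM, on 8 and 4 counts, with exact intervals of 3.45 to 15.8 and 1.09 to 10.2 counts. Both values exceed the 3 counts that a reading of 0 would allow, but Ciita overlaps Dexi on the opposite strand over 25888 bases, and Dexi had 154 and 116 counts. Whether strand was used in counting is not given in the labels or headers, so reads of Dexi cannot be told apart from those of Ciita.

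In the list of class II accessory and other class II genes, H2-DMa, a chain of the peptide editor, stood above Cd74 at 2.66 and 3.02 TPM. The counting intervals of H2-DMa and Cd74 overlapped in both libraries. In TPM, the other H2 genes of that list lay below H2-Aa. The partner chains of H2-DMa, H2-DMb1 (0.57 and 0.49 TPM) and H2-DMb2 (0.30 and 0.34 TPM), are near copies whose reads were divided by the authors' model, with posterior SDs of 1.59 and 0.87 counts. H2-Oa and H2-Ob, which form a brake on H2-DM, stood at 0.37 and 0.36 TPM and at 0.08 and 0.02 TPM (0.18 and 0.13 TPM for H2-Ob as the authors' posterior mean). H2-Eb1, a further class II beta chain gene, stood at 0.63 and 0.57 TPM on 26 and 21 counts, and whether its chain forms a molecule was not measured. H2-Eb2 had no count in either library, which allows up to 3.

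Of the 11 genes in that list, 4 reached 1 TPM in both libraries, and the median was 0.57 TPM. Those that led it were not specific to class II cells: Cd82 (80.1 ± 1.32 TPM) and Cd37 (9.43 ± 0.290 TPM) are tetraspanins, and March8 (66.6 ± 8.01 TPM) is a ubiquitin ligase that removes class II from the surface among other targets. The list of endosomal antigen processing holds proteases, the thiol reductase Ifi30 and lysosomal membrane proteins. All 10 of its genes reached 1 TPM, and their median was 74.0 ± 0.286 TPM, led by the proteases Ctsd (272 ± 5.09 TPM) and Ctsb (241 ± 16.2 TPM) and the lysosomal membrane protein Lamp1 (166 ± 9.73 TPM), which serve protein turnover in most cells.

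Class I exceeded class II on every summary computed. The median log2(TPM + 0.1) of the 6 class I genes lay above that of the 4 class II genes by 4.81 in replicate 1 and 4.91 in replicate 2 (4.86 ± 0.08), or 28.0-fold and 30.1-fold. The sum over class I was 454 and 507 TPM and that over class II 4.81 and 5.17 TPM, a ratio of 94.3-fold and 98.1-fold. For the peptide-binding chains alone, H2-K1 plus H2-D1 exceeded H2-Aa plus H2-Ab1 by 47.6-fold and 47.2-fold (log2 ratio 5.57 ± 0.01). The gap between the classes was thus many times the spread between replicates. Its size depends on the genes counted, since without Ciita the difference of medians was 4.33 on the log2(TPM + 0.1) scale. Expressed as a share of the TPM of all annotated genes, class I took 0.0462% and 0.0524%, and class II 0.000490% and 0.000534%.

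In order of mean TPM the genes ran B2m, H2-D1, H2-K1, Tapbp, Tap2, Tap1, Cd74, H2-Ab1, H2-Aa and Ciita. Neighbours differed beyond both the replicate range and the counting intervals, with the exception of Tap1 beside Cd74, which overlapped on both, and Cd74 beside H2-Ab1, which overlapped on counting intervals. The steps were largest between H2-Aa and Ciita (28.5-fold), between Tapbp and Tap2 (4.91-fold) and between B2m and H2-D1 (4.62-fold). The lowest class I gene, Tap1, and the highest class II gene, Cd74, thus could not be separated, so the classes met in the middle of the order. Of the 10 genes, 8 reached 1 TPM in both libraries, all 6 of class I and 2 of 4 of class II, against a background of 28.1% of annotated genes and 52.1% of protein-coding genes. H2-Aa lay just below 1 TPM, at 0.86 and 0.85 TPM, and just above it as the authors' posterior mean (1.04 and 1.09 TPM). Protein-coding genes past that level had a median of 12.5 TPM, above which only B2m, H2-D1, H2-K1 and Tapbp of the 10 stood.

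The genes nearest to B2m in level over the 2 libraries were Serpinc1, which encodes antithrombin (292.1 and 343.6 TPM, a distance of 0.01 in log2(TPM + 0.1)), 1810022K09Rik (292.0 and 348.7 TPM) and the splicing factor Srsf5 (283.2 and 336.3 TPM). Those nearest to Cd74 were Uvssa, a protein of transcription-coupled DNA repair (1.98 and 2.46 TPM), Heatr5b (1.96 and 2.44 TPM) and Zgrf1 (2.02 and 2.47 TPM). They were found among 21472 protein-coding genes, and likeness over 2 libraries is a statement about level only.

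Transcription factors of the MHC promoter module were present, whereas both of its coactivators were at a few counts. Nfyc (48.8 and 54.1 TPM) and Nfyb (35.7 ± 4.55 TPM), subunits of the Y box factor NF-Y, and Atf1 (44.0 ± 2.76 TPM), of the CREB/ATF family, led the list. The RFX complex was uneven: Rfxap stood at 10.9 and 15.9 TPM, Rfxank at 3.81 and 3.71 TPM, and Rfx5, its DNA-binding subunit, at 0.85 and 1.59 TPM. The authors' posterior means for Rfx5 were higher, at 1.58 and 2.40 TPM, with their intervals of 1.15 to 2.05 and 1.85 to 2.99 TPM leaving out the former values. For Rfxap the counts were nearly equal (492 and 490), so that the 2 units of measurement disagree about its replicates. Nlrc5, the class I coactivator, stood at 0.04 and 0.06 TPM on 7 and 5 counts (0.16 and 0.19 TPM as the posterior mean). Nlrc5 and Ciita thus each had 8 counts or fewer in either library.

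The interferon axis, the main inducer of these genes, was present on the receiving side. All 13 genes of interferon signalling reached 1 TPM in both libraries (median 13.95 ± 0.891 TPM), led by the receptor chain Ifnar2 (63.2 ± 3.90 TPM), the kinase Jak1 (41.8 ± 6.89 TPM) and the receptor chain Ifngr1 (37.6 ± 2.23 TPM). Irf8 stood at 10.5 and 11.3 TPM, and Irf1 at 6.05 and 7.23 TPM. Of the 4 interferon genes examined, Ifng had 1 count in replicate 1 and none in replicate 2, and Ifnb1, Ifna1 and Ifna4 had none in either, each within the 3 counts that a reading of 0 allows. Of 18 interferon-induced genes, 13 reached 1 TPM in both libraries (median 2.37 ± 0.127 TPM). Bst2 (tetherin, 32.3 ± 1.39 TPM), the GTPase Irgm1 (16.9 ± 1.68 TPM) and Ifi27 (14.3 ± 0.283 TPM) led them.

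The costimulation list holds molecules by which a presenting cell and a T cell activate or restrain each other, and 3 of its 6 genes reached 1 TPM in both libraries. The activating ligand Cd86 had a mean of 5.11 ± 0.559 TPM, Cd40 stood at 2.97 and 3.33 TPM and Icosl at 1.70 and 1.69 TPM. The inhibitory ligand Cd274 (PD-L1) stood at 0.15 and 0.28 TPM, Cd80 at 0.02 and 0.07 TPM on 1 and 4 counts, and Pdcd1lg2 (PD-L2) had 3 counts and 0. Cd86 and Cd40 thus stood above Cd74, the highest class II gene of the 10, in both libraries. For Cd40 and Cd74 the counting intervals overlapped in replicate 2 (2.78 to 3.95 TPM and 1.98 to 2.995 TPM). Over all 11 pathway lists, 84 of 115 genes (73.0%) reached 1 TPM in both libraries, beside 52.1% of protein-coding genes. The lists were chosen with earlier results of these data known, and some hold genes of general protein handling. The excess is therefore no result about the pathway. The lists with the lowest share of such genes were the interferon ligands (0 of 4), the class II accessory genes (4 of 11), costimulation (3 of 6) and the non-classical class I genes (11 of 21). For costimulation and the non-classical genes that share lay near the 52.1% of protein-coding genes.

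**Figure D4:**
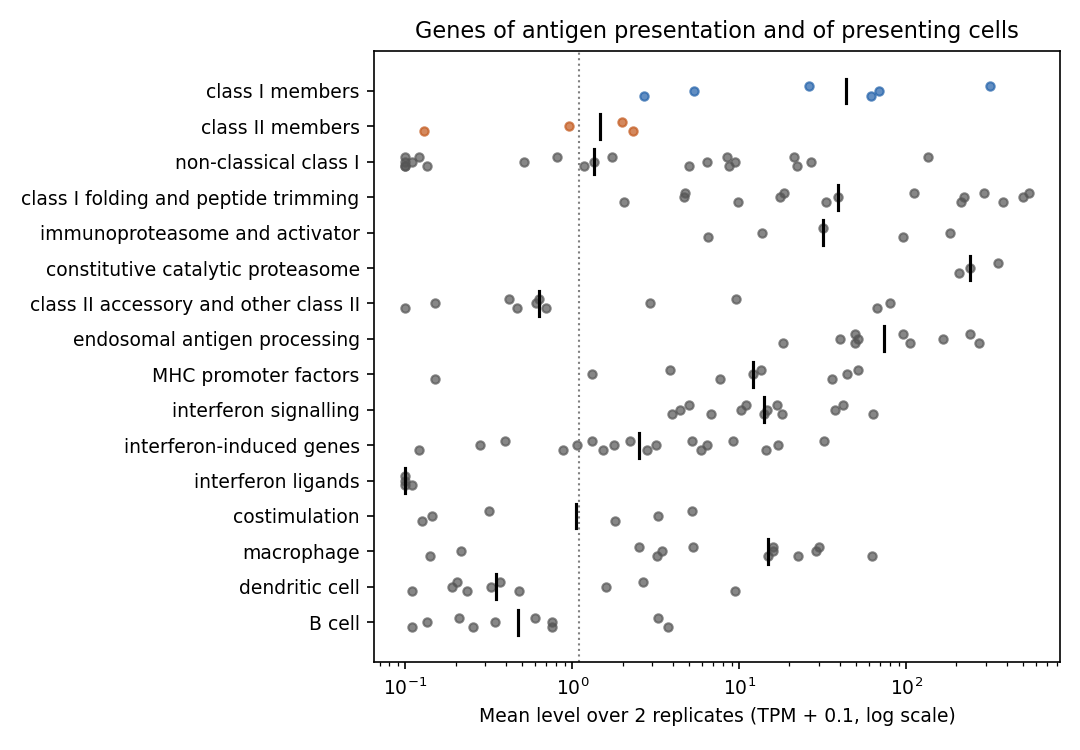
Mean level over the 2 replicates (TPM + 0.1, log axis) of each gene, 1 point per gene, in the class I and class II members, the 11 pathway lists and 3 lists of presenting-cell markers, with a black bar at each list's median and a dotted line at 1 TPM. The class II members (median 1.37 TPM) lie below the class I members (median 43.7 TPM), and the B cell and dendritic cell markers lie lower than the macrophage markers.

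Markers of the cells that usually carry class II were themselves unequal. Of 13 macrophage markers, 11 reached 1 TPM in both libraries, and Cd163 and Vsig4 stayed below. They summed to 202 and 206 TPM, with the complement genes C1qb (62.0 ± 2.01 TPM), C1qa (30.0 ± 2.05 TPM) and C1qc (28.9 ± 1.22 TPM) highest. Of 10 dendritic cell markers, 3 reached 1 TPM, Zbtb46 (9.35 ± 0.346 TPM), Batf3 (2.57 ± 0.354 TPM) and Flt3 (1.57 and 1.43 TPM), and the list summed to 15.3 and 14.0 TPM, with Xcr1 at 3 counts or fewer. Zbtb46, Batf3 and Flt3 are also used by other cells of blood and vessels. Of 10 B cell markers, 2 reached 1 TPM, Cd79b (3.64 ± 0.453 TPM) and Ighm (3.17 ± 0.0919 TPM). That list summed to 9.15 and 9.21 TPM, followed by Vpreb1 (0.85 and 0.47 TPM), and Ms4a1 and Pax5 had 3 counts or fewer. As the authors' posterior mean, Pax5 stood at 1.01 and 1.05 TPM and would also reach 1 TPM, although it had 2 counts in replicate 1 and 0 in replicate 2. The highest macrophage markers thus exceeded every class II gene of the 10, and which cells carried the class II reads was not tested.

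For these genes the replicates differed about as much as for all genes tested. Ratios were taken as replicate 2 over replicate 1 of expected counts after TMM scaling, where the counts of a gene averaged 10 or more. That left 9 of the 10, without Ciita. None of the 9 passed 1.5-fold, against a background of 8.11% of 15997 genes (3.43% higher and 4.68% lower in replicate 2). Among only 9 genes, that number is no result about them. The median absolute log2 ratio of the 9 was 0.13, beside 0.15 over all genes tested. In replicate 2, 4 of the 9 were higher and 5 lower, where 51.4% of all genes were higher. The median log2 ratio was −0.09 for the 9 genes and 0.0046 for all genes.

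For 3 of the 9 genes the counting interval of the fold did not include 1, where the same held for 39% of the 15997 genes tested. These 3 were also the only ones of the 10 with a mean count of 3000 or more, a depth at which 73.4% of 2473 genes had such an interval, so their number is no result about these genes. B2m was 1.07-fold in replicate 2 over replicate 1 (95% interval 1.04 to 1.10), H2-K1 0.877-fold (0.835 to 0.921) and H2-D1 0.845-fold (0.809 to 0.881). Each of these differences exceeded counting error and stayed under 1.5-fold. The interval leaves out variation between samples, which 2 replicates cannot give for a difference between them. For Tapbp the interval was 0.946 to 1.06 and for Tap2 0.795 to 1.03. For the class II genes the intervals were wide, from 0.552 to 1.60 for H2-Aa, so a difference of up to that size was not detectable at this depth.

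The scale matters for such small differences. TPM ratios exceeded scaled count ratios by a median of 1.11-fold for genes of unchanged effective length. Tapbp stood at 24.2 and 27.7 TPM with 2293 and 2292 counts, and its leading transcript took 86.9% and 84.0% of its TPM. Scaled to the spike-ins, all ratios would be lower by 0.64 on the log2 scale, and 6 of the 9 would pass 1.5-fold. That shift, common to all genes, is itself past 1.5-fold, so the number is no result about these genes. The share of all genes past 1.5-fold under this scaling was not computed. Markers of other cell types also differed between the replicates: all 7 cardiac markers were higher in replicate 2 (median log2 ratio 2.48, 6 of them past 1.5-fold), as were 7 of 8 endothelial markers (median 0.22). Macrophage markers had a median log2 ratio of −0.07, with 4 of 11 higher in replicate 2. The part of these in the ratios of B2m, H2-K1 and H2-D1 was not tested.

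**Figure D5:**
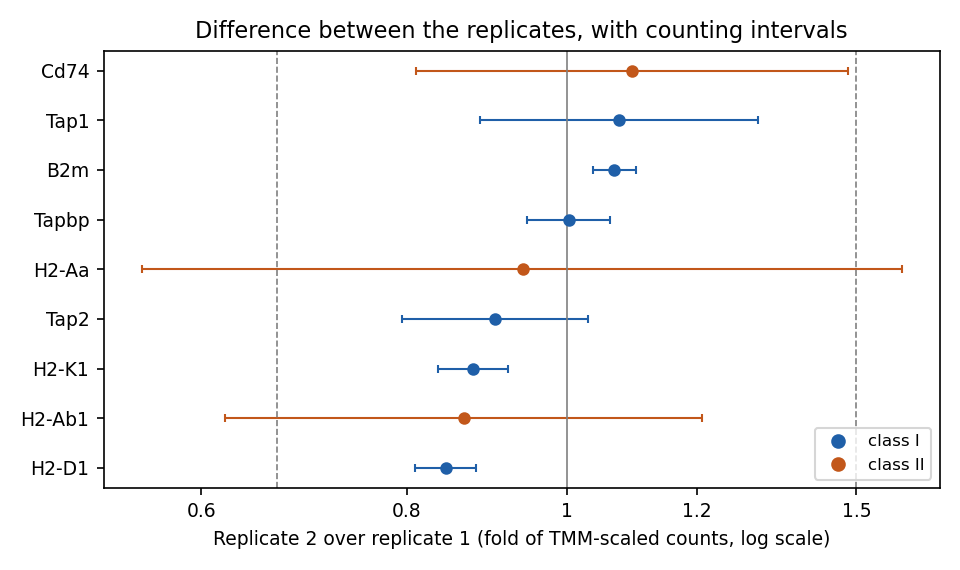
Fold of TMM-scaled counts in replicate 2 over replicate 1 (log axis) for the 9 genes whose counts averaged 10 or more, class I in blue and class II in orange, with 95% counting intervals, a solid line at 1 and dashed lines at 1.5-fold either way. All 9 points lie between the dashed lines, and the intervals of B2m, H2-K1 and H2-D1 leave out 1.

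Each gene's place in the genome bears on how its reads could be assigned. In GRCm38, with the names and positions of GENCODE release M21, 7 of the 10 lie within the MHC on chromosome 17: Tapbp (ENSMUSG00000024308, 33915899 to 33929292), H2-K1 (ENSMUSG00000061232, 33996017 to 34000347), Tap1 (ENSMUSG00000037321, 34187553 to 34197225), Tap2 (ENSMUSG00000024339, 34203527 to 34216321), H2-Ab1 (ENSMUSG00000073421, 34257689 to 34269419), H2-Aa (ENSMUSG00000036594, 34282744 to 34287823) and H2-D1 (ENSMUSG00000073411, 35262730 to 35267499). B2m (ENSMUSG00000060802) lies on chromosome 2 (122147686 to 122153083), Ciita (ENSMUSG00000022504) on chromosome 16 (10480059 to 10528418) and Cd74 (ENSMUSG00000024610) on chromosome 18 (60803848 to 60812652). Tapbp overlaps Zbtb22 on the same strand over 3422 bases, and Zbtb22 had 805 and 722 counts. Tap1 overlaps Psmb9 on the opposite strand over 212 bases, and B2m overlaps Patl2 on the opposite strand over 5398 bases, with 5 and 4 counts for Patl2. Of the windows of 100 bases in the leading transcripts, 14.0% of those of Tapbp and 7.84% of those of Tap2 occurred in transcripts of other genes, mainly antisense genes such as Gm19412 and Gm15821 at 14.0 counts or fewer. None did so in B2m, Tap1, Cd74, H2-Aa, H2-Ab1 or Ciita.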

How the data were processed

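Total RNA of liver was measured in 2 libraries of 1 group, each from 10 ng of RNA, per the labels. The expected counts and TPM per gene and per transcript were deposited by the authors, with posterior SDs and posterior means, for build mm10 and GENCODE release M4, per the deposited readme. The deposited TPM sum to the same total in each library, and effective length was 99 nt below transcript length. The percent of a gene in each transcript is a deposited column and was recomputed from TPM. For the aligner, the quantification tool and the use of strand, nothing is given in the sources used here.

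Of 43346 annotated genes, 42462 received a symbol from GENCODE release M21 by gene ID. All 10 members and 188 of 189 list symbols were found; the erythroid marker Ahsp was not. The members, the 11 pathway lists and the 7 marker lists were chosen with earlier results of these data known. Named genes were the members, the 3 highest of each list, all genes of lists of at most 6, the MHC and interferon regulators, class II genes, and the 3 genes nearest in level to B2m and to Cd74. Of the genes chosen in this way, 1 is not reported here. H2-T23, H2-M3, H2-Eb2, Cd163, Vsig4, Xcr1, Ms4a1, Pax5 and the non-classical genes at 3 counts or fewer were named after their values were seen.

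With 1 group of n = 2, levels are given as mean and SD, and no p-value was computed. Differences of level use log2(TPM + 0.1). Ratios between replicates use log2 of counts plus 0.5 and TMM factors (edgeR 4.0.16, R 4.3.3) where counts averaged 10 or more; the counts were rounded for the factors, and DESeq2 1.42.0 gave other size factors. Intervals are exact 95% Poisson or, for folds, binomial intervals. Neither these nor the floor of 3 counts cover more than counting error. Simulated Poisson counts of 15997 genes tested the ratio step. True log2 ratios of 0.58 and 1, set in genes averaging 100 counts or more, came out as 0.58 and 0.98. The simulation covered neither changes at the depth of the class II genes nor variation between samples. Coding and promoter sequences were aligned with mafft 7.526, and promoters are those of RefSeq. Alternatives covered the pseudocount, posterior mean TPM, counts in place of TPM, the scaling, the count minimum, the members counted and each replicate alone.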

Additional observations from a re-analysis of the deposited data

How the results depend on the processing

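The class I minus class II difference of medians (4.86 on the log2(TPM + 0.1) scale) kept its direction under every alternative tried. It was 4.15 with a pseudocount of 1, 4.96 with 0.01, 4.66 from posterior mean TPM, 5.71 from counts scaled to library totals (CPM), 5.02 as a difference of means, 5.11 for the presenting molecules alone and 4.33 without Ciita. With 1 replicate at a time it was 4.81 to 4.91. No member passed 1.5-fold between the replicates under TMM, DESeq2 factors, total counts or a minimum of 100 counts. With scaling by the spike-ins 6 did, where the shift common to all genes is itself past 1.5-fold. With no count minimum 1 did (Ciita, 8 and 4 counts). B2m over H2-K1 plus H2-D1 (log2 1.28) was 0.19 from expected counts, which are not corrected for length, and reversed to −0.26 with the non-classical genes added; with 1 replicate at a time it was 1.13 to 1.43. Of the 10 members, 9 reached 0.5 TPM and 6 reached 2 TPM in both libraries. From posterior mean TPM, 9 reached 1 TPM in both libraries. The share of all genes was not computed for these alternatives, so these counts show only how the setting moves the number. The share of the leading transcript moved most for H2-Aa (91.4%, or 64.3% from posterior means), H2-Ab1 (100%, or 86.6%) and Tap2 (79.5%, or 67.3%). In all, 47 alternative values stayed within the limits set, 18 moved and 1 reversed. The limits are not given here and were wide for counts of genes: 76 pathway genes at 2 TPM, in place of 84 at 1 TPM, stayed within them. Values from 1 replicate alone are among the 47, so the tally does not measure how stable the results are. Depth limits the class II genes, at 30 to 95 counts, and Ciita. No paired analysis was possible because the series has 1 group.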
